A study of Mus musculus with 8 samples.

Results

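Late-numbered mouse microRNAs are the entries from miR-1890 to miR-2199, which entered the miRNA registry when small-RNA sequencing enlarged it. They were taken as all assays with a mouse (mmu) name in that range and without the # mark of a passenger strand, which gave 72 of the 750 miRNA assays of the series. Real-time PCR gave their levels in the CD34+/CD105- cells of the mouse renal artery, released with collagenase and collected by flow cytometry. A sham group of 4 mice was compared with a group of 4 mice given renal ischemia/reperfusion injury by clamping both renal arteries, called injured mice here. The sources used here give no strain, age, clamp time or reperfusion time, and no number of sorted cells. The readout is the threshold cycle (Ct), the PCR cycle at which the signal crosses a set level, so that 1 cycle less stands for a doubling of RNA if amplification is fully efficient.

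A mature miRNA is cut from a hairpin precursor and guides a silencing complex to messenger RNAs that pair with its seed, bases 2 to 8. Entries found late were mostly rare in the tissues first cloned, and some were later withdrawn from the registry because their sequences are pieces of other abundant small RNAs. The miR-1937 group is an example, matching transfer RNA. The question asked of these assays was whether they are detected at all, how far their Ct differs between mice, and whether it moves with the reference Ct of the same sample.

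Mature sequences in RefSeq (GRCm38.p6) matched 38 of the 72 names, and 3 of the 10 members detected in at least 6 mice. Those 3, and the opposite arms of the measured hairpins, are shown because RefSeq holds them. Capitals mark the seed.
miR-1894-3p: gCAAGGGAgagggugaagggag
miR-1894-5p: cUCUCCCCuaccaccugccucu
miR-1896: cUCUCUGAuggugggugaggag
miR-1897-3p: uCAACUCGuucuguccggugag
miR-1928: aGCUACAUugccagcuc

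The Mir1894 hairpin lies at chr17:35917889-35917969 on the plus strand, within the bounds of Ppp1r10, with its 3p arm at chr17:35917938-35917959. The 22 bases of miR-1894-3p hold 90.9% purines, and those of miR-1894-5p hold 13.6%. The mature miR-1896 lies at chr13:21445209-21445230 on the plus strand, where the bounds of Zscan26 and 4930470G03Rik overlap. miR-1928, of 17 bases, lies at chr1:74206562-74206578 on the minus strand, outside the bounds of any other gene in the RefSeq table. Its seed is also that of miR-221-3p and miR-222-3p, miRNAs known from endothelium and smooth muscle, and of no other among the 1679 mature mouse sequences compared. The seeds of the other 4 printed sequences occurred in no other of them, and no seed was shared between the matched members. Whether these overlaps are exonic or intronic was not analysed here.

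miR-1897-5p has no mature entry in that table, so its precursor is shown, with the other arm, miR-1897-3p, in capitals from base 48 to base 69. The hairpin lies at chr3:34638464-34638542 on the plus strand, within the bounds of Sox2ot, a long non-coding RNA gene.
Mir1897: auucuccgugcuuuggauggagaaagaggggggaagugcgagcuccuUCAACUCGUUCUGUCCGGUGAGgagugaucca

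All members sit on the second of the 2 assay cards, with 303 other miRNA assays. The deposited reference Ct of that card was 21.5, 23.0, 20.2 and 18.8 for sham mice 1 to 4 and 21.5, 22.6, 21.6 and 21.9 in injured mice 1 to 4. Sham mouse 4 therefore had the lowest reference Ct and sham mouse 2 the highest, and the injured mice lay close together between them. Which RNA gives the reference is not stated in the sources used here. snoRNA202, a control RNA on the same card, followed the reference with r = 0.975 (8 mice). Of the marker assays, both endothelial miR-126 arms were detected in all 8 mice and erythroid and neural markers in none, while 4 of 5 leukocyte, 3 of 3 tubule, 3 of 3 smooth muscle, 4 of 4 fibroblast and mesenchymal and 2 of 4 striated muscle assays were detected in at least 1 mouse. In all 8 mice these counts were 3, 0, 1, 2 and 0. Some miRNAs have more than 1 assay here, and the 3 leukocyte assays were hsa-miR-223, mmu-miR-223 and miR-150. The part of the marker cell types in the results was not tested. CD34 and CD105 are proteins and are not read by these assays. In such a bulk readout fewer cells of a type and less RNA per cell cannot be told apart.

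Most late-numbered miRNAs gave no signal in these cells. Of the 72 members, 57 had no Ct in any of the 8 mice, 3 had a Ct only at or above the detection limit of Ct 35, and 12 were detected in at least 1 mouse. That is 16.7% of the members, beside 24.9% of all 750 miRNA assays and 13.5% of the other assays on the same card. When detected, members were mostly detected throughout. At least 6 mice were positive for 10 members (13.9%), beside 10% of all assays and 5.61% of the others on the card. All 8 mice were positive for 7 members (9.72%), beside 7.2% of all assays and 4.29% of the others on the card. These shares are descriptions, and their differences were not tested.

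The members fall into 3 blocks by number. From miR-1893 to miR-1906, 3 of 15 members were detected, miR-1894-3p, miR-1896 and miR-1897-5p. Without any Ct in that block were miR-1893, miR-1894-5p, miR-1897-3p, miR-1898, miR-1899, miR-1900, miR-1901, miR-1902, miR-1903, miR-1904, miR-1905 and miR-1906. From miR-1927 to miR-1982, 5 of 49 were detected, miR-1928, miR-1937b, miR-1937c, miR-1944 and miR-1959. From miR-2134 to miR-2183, 4 of 8 were detected, miR-2134, miR-2138, miR-2146 and miR-2182, and miR-2135, miR-2136 and miR-2139 had no Ct. In the middle block, the silent assays were miR-1927, miR-1930, miR-1931, miR-1932, both arms of miR-1933, miR-1934, miR-1935, miR-1936, miR-1938, miR-1939, miR-1940, both arms of miR-1941, miR-1942, miR-1943, miR-1945, miR-1946a, miR-1947, miR-1948, miR-1949, miR-1950, miR-1951, miR-1952 and miR-1953. The rest of the silent assays there were miR-1956, miR-1957, miR-1958, miR-1960, miR-1961, miR-1962, miR-1963, miR-1964, miR-1965, miR-1966, miR-1967, miR-1968, miR-1969, miR-1970, miR-1971, miR-1981 and miR-1982.1.

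For both hairpins with one detected arm, the opposite arm was silent. miR-1894-5p had no Ct in the 7 mice with detected miR-1894-3p, and miR-1897-3p had none in the 8 mice with detected miR-1897-5p. A hairpin usually yields more of one arm than of the other. No Ct in any mouse was also common in general, for 57 of the 72 members and 540 of all 750 assays. A choice between arms was not tested. Among the matched members, the GC content of the 35 that were never detected was 54.5% at the median (35.3% to 68.2%), and the 3 that were detected in at least 6 mice lay at 63.6%, 59.1% and 52.9%, all within that range.

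Members near the detection limit were few. miR-2183 had a Ct in every mouse but always above the limit, at 36.6, 37.2, 35.5 and 35.1 for sham mice 1 to 4 and 35.4, 36.9, 37.4 and 37.1 in injured mice 1 to 4. miR-1954 had a Ct in sham mice 3 and 4 (38.3 and 38.2) and in injured mice 2 and 3 (38.5 and 37.4), and miR-1982.2 in sham mice 2 and 4 (37.3 and 37.7). miR-1959 was detected in sham mice 1 and 3, at 34.5 and 32.1, and missed the limit in injured mouse 1, at 35.3. miR-1944 was detected in 2 mice of each group, sham mice 3 and 4 at 31.6 and 29.9 and injured mice 1 and 4 at 34.1 and 31.8. Its other wells read 35.6 in sham mouse 1 and 35.1 and 35.7 in injured mice 2 and 3, and sham mouse 2 had no Ct.

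The number of members detected per mouse was 11, 10, 12 and 10 for sham mice 1 to 4 and 10, 9, 9 and 11 in injured mice 1 to 4. The groups overlapped, with a mean of 10.75 ± 0.957 in sham and 9.75 ± 0.957 in the injured mice (SD, 4 mice each). The difference was -1 assay, with p = 0.314 by two-sided exact permutation, which cannot go below 0.0286 with 4 mice per group. Over the other assays of the card the difference was -7 assays, from 27.5 ± 6.24 to 20.5 ± 3.87 (SD, n = 4 per group; exact permutation p = 0.114). No member was detected in 3 more mice of one group than of the other, beside 13 of all 750 assays.

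**Figure D1:**
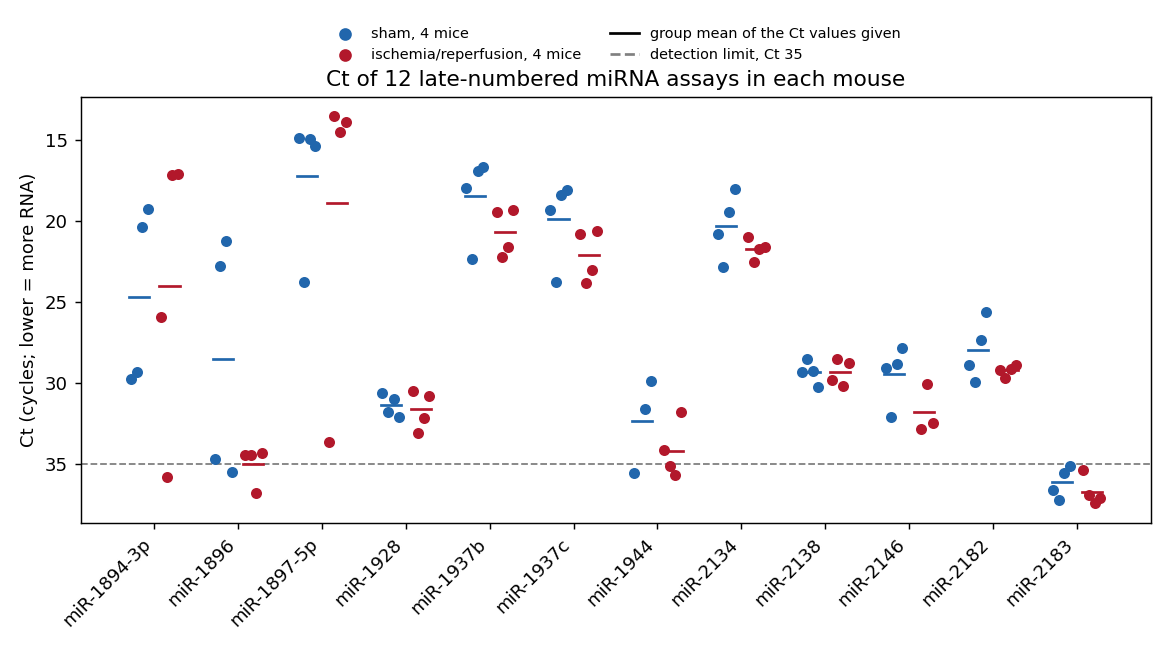
Ct in cycles (vertical axis, turned so that more RNA is higher) for the 12 late-numbered assays with a Ct in at least 7 mice. Points are single mice, blue for sham and red for ischemia/reperfusion, in mouse order from left to right within a group. Short bars are group means of the Ct values given, and the dashed line is the detection limit of Ct 35. miR-1894-3p, miR-1896 and miR-1897-5p scatter over more than 12 cycles, and miR-2138 stays between 28.5 and 30.2.

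The detected members ranged from the strongest signals of the card to weak ones. Among the 54 miRNA assays detected in all mice, miR-1897-5p had the lowest mean Ct (18.1), with miR-1937b at rank 3 (19.6), miR-1937c at rank 5 (21.0) and miR-2134 at rank 6 (21.0). miR-2182 (28.6), miR-2138 (29.3) and miR-1928 (31.5) stood at ranks 35, 39 and 51. Ct of different assays also depends on each assay's efficiency, so these ranks order signals, not molecules. In 5 of the 8 mice, sham mice 3 and 4 and injured mice 2, 3 and 4, miR-1897-5p had the lowest Ct of all 750 miRNA assays. In the other mice an assay of miR-190b, not a member, was lowest. It was hsa-miR-190b in sham mouse 1 (14.7), and rno-miR-190b in sham mouse 2 (15.0) and injured mouse 1 (14.5).

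By their spread between mice, the 10 members detected in at least 6 mice fell into descriptive sets of different behaviour, ordered here from those that moved with the reference to those that did not. The sets were formed after the values were seen. Of the 10 members, 5 had a Ct that followed the reference at an adjusted p under 0.05 (exact permutation of Pearson's r, Benjamini-Hochberg over the 75 assays with at least 6 detected values). The share over all 75 was 50.7%, close to that of the members. By Spearman's rho, 5 of 10 members and 25.3% of all 75 passed, and the difference between these shares was not tested. Without sham mouse 4, which has the lowest reference Ct, 2 members (miR-2134 and miR-2182) passed, beside 10.1% of the 69 assays then run. Without sham mice 2 and 4, which leaves 6 mice, 0 of 7 members and 0 of 58 assays passed. With 6 mice there are too few pairings for 1 assay alone to pass among 58. The count of 0 therefore does not show a lost correlation, and r was still 0.974 for miR-2134 and 0.935 for miR-2182.

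miR-2134 moved almost in step with the reference. Its Ct was 20.8, 22.9, 19.5 and 18.0 for sham mice 1 to 4 and 21.0, 22.6, 21.7 and 21.6 in injured mice 1 to 4. As in the reference, sham mouse 4 was lowest and sham mouse 2 highest. Pearson's r with the reference was 0.991 and Spearman's rho 0.976 (8 mice; exact permutation p = 7.44e-05 and 0.000397; adjusted p of r = 0.00446). With sham mice 2 and 4 left out, the mice farthest from the median reference, r was 0.974, and with the group means removed it was 0.992. Subtracting the reference lowered the SD over the 8 mice from 1.61 to 0.335 cycles, and delta Ct ran from -0.80 to 0.13.

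miR-2182 did the same at a lower level. It read 28.9, 29.9, 27.4 and 25.6 for sham mice 1 to 4 and 29.2, 29.7, 29.1 and 28.9 in injured mice 1 to 4. The highest and the lowest values were again in sham mice 2 and 4. Its r was 0.974 and its rho 0.905 (8 mice; exact permutation p = 0.000471 and 0.00456; adjusted p of r = 0.00505), with r = 0.935 without sham mice 2 and 4 and 0.972 with the group means removed. The SD fell from 1.42 cycles for Ct to 0.322 for delta Ct. Of the 54 assays detected in all mice, miR-2182 and miR-2134 had the lowest and second lowest SD of delta Ct, and the lowest among the others was 0.532. The control snoRNA202 had 0.311. The pair kept a Ct difference of 7.58 ± 0.419 cycles (SD, n = 8).

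miR-1937b and miR-1937c, which match transfer RNA, followed the reference more loosely but each other tightly. Ct of miR-1937b was 17.9, 22.3, 16.9 and 16.7 for sham mice 1 to 4 and 19.5, 22.2, 21.6 and 19.4 in injured mice 1 to 4. For miR-1937c it was 19.3, 23.8, 18.4 and 18.1 in sham and 20.8, 23.8, 23.1 and 20.6 after ischemia/reperfusion. In both, sham mouse 2 stood apart from the other sham mice, at the level of the highest injured mouse. The Ct of miR-1937c minus that of miR-1937b was 1.42 ± 0.096 cycles (SD, n = 8), between 1.28 and 1.60, while each of them spread over more than 5 cycles between mice. Registry names with the same number and different letters mark closely related sequences, and whether both assays read the same RNA was not tested.

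Against the reference, r was 0.862 for miR-1937b and 0.858 for miR-1937c, with rho at 0.929 and 0.905 (8 mice; exact permutation p of r = 0.00146 and 0.00196; adjusted p = 0.00864 for both). Without sham mice 2 and 4, r was 0.822 and 0.815 (6 mice). The SD fell from 2.30 to 1.33 cycles for miR-1937b and from 2.33 to 1.37 for miR-1937c. Among the 53 other assays detected in all mice, the Ct of miR-1937b was most like that of miR-1937c (r = 0.999) and then miR-720 (r = 0.991). For miR-1937c the next was also miR-720 (r = 0.994), an entry likewise known to match transfer RNA. miR-2134 and miR-2182 were each most like miR-126-5p, the endothelial partner arm (r = 0.982 and 0.984), and then like each other (r = 0.969). All these correlations are over the same 8 mice, and whether a shared RNA level lies behind them was not tested.

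miR-2146 had the fifth of the passing correlations. Its Ct was 29.1, 32.1, 28.8 and 27.9 for sham mice 1 to 4 and 32.8, 30.1 and 32.4 in injured mice 2 to 4, with an empty cell for mouse 1. Sham mouse 2 and injured mice 2 and 4 were the weak samples. It gave r = 0.872 and rho = 0.893 (7 mice; exact permutation p = 0.00278 and 0.0123; adjusted p of r = 0.0116), and its SD fell from 1.99 to 1.02 cycles. The adjusted p was above 0.05 without sham mouse 2 (0.0603), without sham mouse 4 (0.0930) and without injured mouse 2 (0.0507). Those of miR-1937b and miR-1937c rose to 0.0624 without sham mouse 4. With the group means removed, the adjusted p was 0.0434 for miR-2134 and 0.0781 for the other 4, with r between 0.827 and 0.972.

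**Figure D2:**
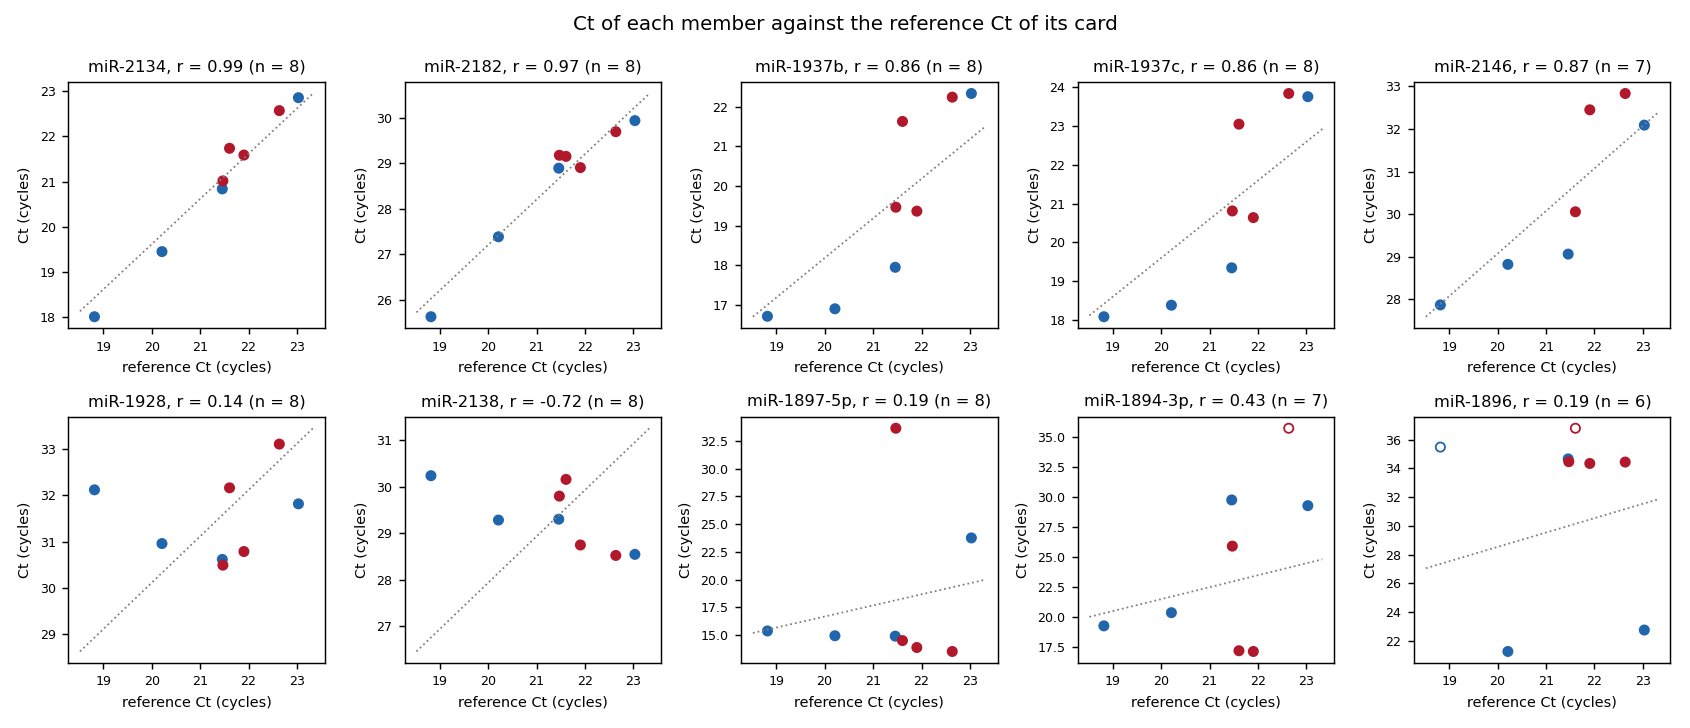
Ct of each of the 10 members detected in at least 6 mice (vertical axes, cycles, with own scales) against the reference Ct of the card (horizontal axes, cycles). Blue points are sham mice and red points ischemia/reperfusion mice; open points are wells at or above Ct 35, left out of r. The dotted lines have a slope of 1 cycle per cycle through the mean difference. miR-2134 and miR-2182 lie along the line, while miR-2138 falls with the reference (r = -0.72).

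miR-2138 and miR-1928 moved little between mice. The Ct of miR-2138 was 29.3, 28.5, 29.3 and 30.2 for sham mice 1 to 4 and 29.8, 28.5, 30.2 and 28.7 in injured mice 1 to 4. Sham mouse 4, with the lowest reference Ct, had the highest miR-2138 Ct, and sham mouse 2, with the highest reference, was among the lowest. Its r was -0.72 and its rho -0.74 (8 mice; exact permutation p = 0.0363 and 0.0458; adjusted p of r = 0.0664), the lowest r of the 54 assays detected in all mice and the 1 negative r among the 75 assays with an unadjusted p under 0.05 (1.33%). Without sham mice 2 and 4, r was still negative, at -0.42, with an unadjusted p above 0.05 (6 mice; exact permutation p = 0.407). With the group means removed it was -0.78 (exact permutation p = 0.0139, adjusted p = 0.0781). The adjusted p was 0.0207 without sham mouse 3 and 0.0272 without injured mouse 3.

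The SD of miR-2138 was 0.692 cycles for Ct and 1.90 for delta Ct, so that subtracting the reference made its spread larger. miR-1928, which shares the seed of miR-221 and miR-222, behaved alike in that respect. It read 30.6, 31.8, 31.0 and 32.1 for sham mice 1 to 4 and 30.5, 33.1, 32.2 and 30.8 in injured mice 1 to 4. All sham values lay within the range of the injured mice. Its r with the reference was 0.137 (8 mice; exact permutation p = 0.738, adjusted p = 0.779), with rho at 0.262, and its SD rose from 0.931 to 1.52 cycles. In 8 of the 10 members the SD fell after subtraction, beside 78.7% of the 75 assays.

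miR-1897-5p, miR-1894-3p and miR-1896 jumped between mice by far more than the reference did. The Ct of miR-1897-5p was 14.9, 23.8, 14.9 and 15.4 for sham mice 1 to 4 and 33.6, 13.5, 14.5 and 13.9 in injured mice 1 to 4. In 6 mice it lay between 13.5 and 15.4, and sham mouse 2 and injured mouse 1 fell far behind. Its range of 20.1 cycles was the widest of the 54 assays detected in all mice, whose median range was 5.23. Its r with the reference was 0.186 (8 mice; exact permutation p = 0.642, adjusted p = 0.718) and its rho was -0.29.

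miR-1894-3p read 29.8, 29.3, 20.4 and 19.3 for sham mice 1 to 4 and 25.9, 35.8, 17.2 and 17.1 in injured mice 1 to 4. Mice 3 and 4 of both groups were the strong samples, and the value of injured mouse 2 was over the detection limit. miR-1896 read 34.7, 22.8, 21.3 and 35.5 for sham mice 1 to 4 and 34.5, 34.4, 36.8 and 34.3 in injured mice 1 to 4. It was strong in sham mice 2 and 3 alone, and near or over the limit in all other mice, so sham mouse 2, weak for miR-1897-5p, was strong for miR-1896. The strong mice thus differed from one of these assays to the next.

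The widest gap between neighbouring Ct values in order was 11.6 cycles for miR-1896 and 9.87 for miR-1897-5p. For miR-1894-3p it was 5.56, and the median of the 54 assays was 1.66. For miR-1894-3p r was 0.430 (7 mice; exact permutation p = 0.363, adjusted p = 0.440), with rho at -0.07. For miR-1896 r was 0.189 (6 mice; exact permutation p = 0.771, adjusted p = 0.792), with rho at -0.09. The SD over detected values was 7.09 cycles for miR-1897-5p, 6.45 for miR-1896 and 5.52 for miR-1894-3p, and 6.97, 6.34 and 5.09 after subtracting the reference. Of the 75 assays detected in at least 6 mice, 6 spread over more than 10 cycles, these 3 members and rno-miR-190b, miR-150 and miR-152. The sources used here give no number of wells behind each value, so the spread between wells cannot be told apart from that between mice.

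**Figure D3:**
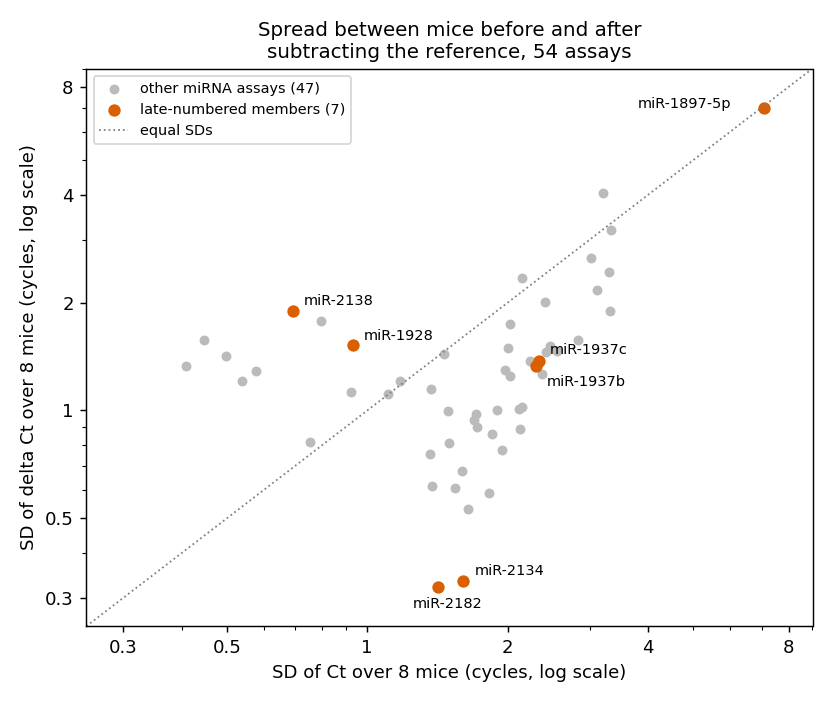
SD of Ct (horizontal axis) against SD of delta Ct (vertical axis), both in cycles over 8 mice on log scales, for the 54 miRNA assays detected in all mice. Orange points are the 7 late-numbered members and grey points the 47 other assays; the dotted line marks equal SDs. miR-2134 and miR-2182 lie lowest, at 0.335 and 0.322 cycles of delta Ct, miR-2138 and miR-1928 lie above the line, and miR-1897-5p is at the far upper right.

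No late-numbered miRNA passed the test between ischemia/reperfusion and sham. Differences are given as minus delta Ct, a log2 scale on which positive values mean more RNA after ischemia/reperfusion. limma called 0 of the 72 miRNAs tested across the series (0%) at an adjusted p under 0.05. Of the 10 tested members, 0 had an unadjusted limma p under 0.05, beside 10 (13.9%) of all 72. The exact permutation test without adjustment gave 0 members and 2 of all 72. The groups were without overlap in 0 of the 10, beside 6.94% of all 72. Log2 differences were below 0 for 7 members, beside 68.1% of all tested. Their median was -0.51, beside -0.80 over all 72. With the mean Ct of the 54 miRNAs present in every mouse as reference, the members' median turned to 0.15, beside -0.24 over all, and 4 of 10 members and 56.9% of all were below 0. With no reference subtracted, the medians were -1.54 and -1.93, and 8 of 10 members and 90.3% of all were below 0. The members' median was -0.93 without sham mouse 2, -0.32 without sham mouse 3 and -0.31 without injured mouse 1. Limma adjusted p-values of the 10 lay between 0.362 and 0.892. The labels number the mice 1 to 4 in both groups and do not say whether a number stands for the same animal. Each of the 8 samples was taken as 1 animal.

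The members that moved with the reference had the narrowest intervals. That is no separate result, because the intervals rest on delta Ct, from which the reference is already subtracted. miR-2182 differed by -0.25 ± 0.50 (SE, n = 4 per group; 95% interval -1.38 to 0.88) and miR-2134 by -0.41 ± 0.49 (SE, n = 4 per group; 95% interval -1.52 to 0.70). Both turned positive, to 0.42 and 0.26, against the mean of those 54 miRNAs. miR-1937b and miR-1937c differed by -1.18 ± 0.87 and -1.17 ± 0.90 (SE, n = 4 per group), and miR-2146 by -1.15 ± 0.76 (SE, 4 sham and 3 injured mice). Over single mice left out, miR-1937b ranged from -1.75 to -0.76 and miR-1937c from -1.74 to -0.75, in both with the largest size without sham mouse 2 and the smallest without injured mouse 3. miR-2146 was at -0.74 without injured mouse 4, -1.79 without injured mouse 3, and -2.10 with Ct 35 in the empty cell of injured mouse 1. In every one of these the 2 groups overlapped.

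The members that moved little in Ct had positive differences that did not pass the test. The reference Ct itself was 1.02 cycles higher in the injured mice (exact permutation p = 0.314). miR-2138 differed by 1.06 ± 1.24 and miR-1928 by 0.77 ± 1.04 (SE, n = 4 per group). Without any reference they were at 0.036 and -0.26. Without sham mouse 4, miR-2138 was at 0.074 and miR-1928 at -0.17, and without sham mouse 2 they were at 2.04 and 1.34.

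The 3 jumping members had the widest intervals, each with 0 inside. Their large SD of delta Ct, given above, already implies that width. miR-1896 differed by -7.75 ± 3.37 (SE, 3 mice per group; 95% interval -15.77 to 0.27; limma adjusted p = 0.362), miR-1894-3p by 5.38 ± 2.87 (SE, 4 and 3 mice; -1.28 to 12.05) and miR-1897-5p by -0.62 ± 4.43 (SE, n = 4 per group; -10.68 to 9.44). Without injured mouse 1, the weak sample of its group, miR-1897-5p turned to 4.44. miR-1896 passed without sham mouse 1 (-12.02, limma adjusted p = 0.000773), which leaves 2 sham values, both strong. With Ct 35 entered for undetected wells, miR-1896 was at -5.11 and miR-1894-3p at 1.89, and with Ct 40 miR-1894-3p was at 0.64. miR-1894-3p was at 8.40 without injured mouse 1 (limma adjusted p = 0.343) and at 3.78 without injured mouse 4. The authors' deposited table gives folds of 0.023 for miR-1896, 3.25 for miR-1894-3p and 0.652 for miR-1897-5p, from all wells with a Ct. miR-1954, never below Ct 35 in any mouse, stands in the authors' deposited table with a fold of 7.22, from 2 mice in each group.

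**Figure D4:**
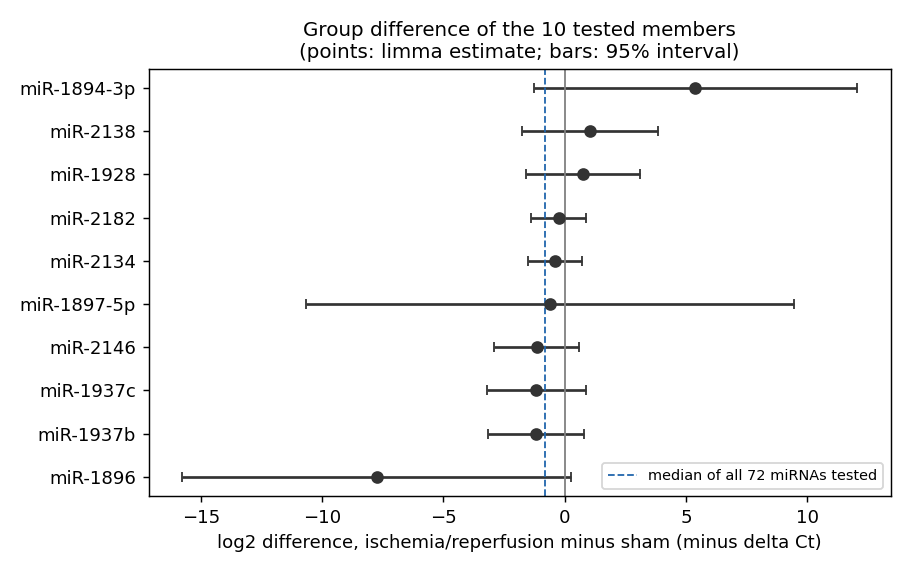
Log2 difference of ischemia/reperfusion minus sham on the minus delta Ct scale for the 10 tested members. Points are limma estimates from 3 or 4 mice per group, bars are 95% intervals, and the dashed line is the median of all 72 miRNAs tested (-0.80). The bar of every member crosses 0, and those of miR-1894-3p, miR-1896 and miR-1897-5p are the widest.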

How the data were processed

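RNA was isolated with mirVana reagents and amplified with FAM-labelled assays (7900HT Fast instrument), per the labels' protocols. The authors deposited Ct, delta Ct and, as a ratio, fold change. The sources used here do not name the software, the threshold, the wells per value or the reference RNA. Ct minus delta Ct was a single reference value per mouse and card, within 7.11e-15 cycles. The authors' fold is 2 to the power of mean sham minus mean ischemia/reperfusion delta Ct, per the file headers. The number of mice, 4 per group, limits the precision.

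The members and all lists were chosen with earlier results of these data known. Detection meant Ct below 35, and values not detected were missing. limma 3.58.1 (R 4.3.3; lmFit, eBayes, two-sided) was fitted to minus delta Ct of all miRNAs detected in at least 3 mice of each group, with Benjamini-Hochberg adjustment at 0.05. Correlations with the card's reference used Pearson's r with exact two-sided permutation over all pairings, for assays detected in at least 6 mice. With group means removed, values were permuted within groups. Fits were tested on simulated data. Named are all members, and the 2 assays most like each member detected in all mice. Mature sequences came from RefSeq (GRCm38.p6). Alternatives were other references, detection limits, values for wells not detected, moderation, a block by mouse number, rank correlation and leaving out each mouse.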

Additional observations from a re-analysis of the deposited data

Results flagged for a closer look

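In 3 of 22 groups of 4 values among the members, 1 mouse lay far from the others by Dixon's ratio of gap to range, above its 95% critical value. About 1 in 20 groups passes by chance. The sham group of miR-1897-5p held a Ct of 23.8 in mouse 2 (ratio 0.947), and its injured group a Ct of 33.6 in mouse 1 (ratio 0.951). For miR-1896, injured mouse 3 had a Ct of 36.8 (ratio 0.950), but the other 3 mice of that group lay within 34.3 and 34.5, next to the detection limit.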

How the results depend on the processing

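The count of miRNAs called by limma rose from 0 to 1 with any Ct taken as detected, with wells not detected at Ct 35 and with them at Ct 40, each time hsa-miR-421 and no member. Over single mice left out it ranged from 0 to 1, the calls being miR-1896 without sham mouse 1 and miR-199a-3p without sham mouse 2. It was 0 under the other alternatives. The members that followed the reference were 5 of 10, 1 of 10 with the group means removed (miR-2134; 12% of all assays), and 0 of 7 without sham mice 2 and 4 (0 of 58 assays, with 6 mice each). With 6 mice, 1 assay alone could not pass among 58. The members that followed the reference ranged from 2 to 5 when single mice were left out. Log2 differences changed sign when the mean of the 54 miRNAs present in every mouse was the reference for miR-1897-5p (0.051), miR-2134 (0.26) and miR-2182 (0.42), with no reference for miR-1928 (-0.26), and below Ct 32 for miR-1897-5p (4.44). With single mice left out, miR-1897-5p ranged from -2.65 to 4.44 and miR-1928 from -0.17 to 1.34. r with the reference changed sign for miR-1896 with any Ct (-0.10), as Spearman's rho for miR-1894-3p (-0.071), miR-1896 (-0.086) and miR-1897-5p (-0.29), and for miR-1897-5p without sham mice 2 and 4 (-0.11). For miR-1928 it ranged from -0.18 to 0.56 over single mice left out.

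Over 54 assays, the deviations of same-numbered mice from their group means gave r of -0.38, -0.15, 0.020 and -0.25. Assays with a wide spread weigh most in these r, so they cannot show whether a number stands for the same animal. In the main fit the numbers were not taken as pairs. With mouse number as a replicate block, limma called 0 miRNAs, and the median of the tested members was -0.51. No member's direction changed under the block. The 54 assays do not include miR-1894-3p, for which mice 3 and 4 of both groups were the strong samples. It was at 4.56 with the block (limma adjusted p = 0.168) and at 5.38 without it (limma adjusted p = 0.446). Injured mouse 2 was over the detection limit, so sham mouse 2 had no counterpart in the block fit. Without the block and without sham mouse 2, the difference was also 4.56. The unadjusted limma p of miR-1894-3p was under 0.05 with the block and above 0.05 in the main fit. Whether its level goes with the mouse number was not tested.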

Other observations

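Small Ct spread was not a trait of the late-numbered assays alone. Of the 54 assays detected in all mice, 14 had a larger SD of delta Ct than of Ct, 2 of them members, miR-2138 and miR-1928. The SD of Ct was under 1 cycle for 10 assays, the same 2 members and miR-29b#, miR-106b, hsa-miR-378, miR-463#, miR-188-5p, miR-34c#, miR-363 and miR-25, chosen after their values were seen. Their mean Ct lay between 20.7 and 32.9, with a median of 29.2 beside 27.6 for the others, and 6 of the 10 are on the second card, beside 20 of the 54. hsa-miR-378 spread by 0.499 cycles at a mean Ct of 20.7, with r = 0.021 with its reference.

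miR-673, of the Dlk1-Dio3 imprinted cluster and not a member, was the assay most like miR-2138 in Ct, at an r of 0.227 over 8 mice. miR-1928 was most like miR-29b# (r = 0.605). miR-1897-5p was most like miR-877# (r = 0.768) and rno-miR-632 (r = 0.763).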
